A study of Mus musculus with 15 samples.

Results

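The genes described here are 10 targets of the transcription factor p53 that act in cell death: Bax, Bbc3, Pmaip1, Apaf1, Fas, Tnfrsf10b, Perp, Eda2r, Aen and Ei24. They were taken by symbol, and all 10 had a row among the 55487 genes counted. The RNA of erythroid progenitors, the dividing precursors of red cells, was sequenced from fetal livers of 129S6/SvEvTac mice at E12.5, in 15 libraries that form 5 groups of 3. Group 1 of mice held wildtype and Rpl5 mutant libraries from polyA RNA; its labels give no allele. Group 2 held wildtype, mutant and low-yield mutant libraries, with total RNA as the molecule, and its sample sheet names the genotype of both mutant groups as Rpl5plusSkax23Jus. No treatment is named for any group, the labels do not define low-yield, and nothing says whether replicates came from separate embryos, so the p-values measure the spread between these libraries, which may be technical.

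In background terms, p53 is held low in unstressed cells by Mdm2, and free ribosomal proteins of the large subunit, RPL5 among them, can bind Mdm2 when ribosome assembly is disturbed. Stabilised p53 then switches on genes for cell cycle arrest and for death. The death genes feed the mitochondrial route, in which BH3-only proteins release BAX to open the outer mitochondrial membrane and APAF1 assembles the caspase-activating apoptosome, and the receptor route, in which FAS and its relatives signal from the cell surface.

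Total counts per library were 48510828 to 58513669 in group 1 and 24954324 to 44827821 in group 2. Levels are given as CPM, each library's counts divided by its TMM-scaled total. Groups 1 and 2 differ in the kind of RNA, so levels were compared within each only. Rpl5 was lower in every mutant library than in every wildtype library of its group of mice, with log2 fold changes of -0.32 ± 0.07 (SE) in group 1, -0.46 ± 0.10 in the mutants and -0.44 ± 0.10 in the low-yield mutants of group 2. The summed CPM of 10 erythroid progenitor genes was 3593 to 4547 in wildtype against 2301 to 2308 in mutants of group 1, and 4073 to 6962 in wildtype against 2997 to 3400 in mutants and 2720 to 3458 in low-yield mutants of group 2. The sum does not stand for every gene in it: over both groups of mice 8 of the 10 fell, beside 9.8% of all genes, the globin, heme and membrane genes among them, while Kit, a receptor of early progenitors, rose by 0.38 ± 0.07 (adjusted p = 0.000383) and Gata1, a lineage factor, differed by 0.10 ± 0.06 (0.208). The summed CPM of 8 granulocyte genes was 72.5 to 569 against 228 to 1138 in group 1, and 16.8 to 35.9 against 140.5 to 224.7 and 165.3 to 380.5 in group 2. Sums of 8 hepatocyte genes were 33.6 to 62.4 in wildtype and 5.85 to 21.98 in mutants of group 1. There Alb (log2 fold change -2.29 ± 0.38, adjusted p = 0.0108) and Serpina1a (-2.56 ± 0.77, 0.0453) fell with edgeR, beside 6.78% of all genes. Of the 8, DESeq2 called 3, voom 1, and edgeR with the replicate number as a block 1. In group 2 the hepatocyte sums were 10.1 to 76.7, 8.96 to 48.1 and 42.5 to 48.4. The erythroid sums in both groups of mice, the hepatocyte sums in group 1 and the granulocyte sums in group 2 did not overlap between wildtype and mutants, and their part in the results below was not tested. In bulk RNA, fewer cells of a type and less RNA per cell cannot be told apart.

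Promoter windows show where these genes differ in sequence. RefSeq windows on GRCm38.p6, from 250 bases before to 50 bases after a transcription start, were held for 7 of the 10 genes; Pmaip1, Tnfrsf10b and Perp had none. Each was searched on both strands for the p53 half-site, by its name the consensus decamer of which a full response element holds a pair. The 3 genes with a match are shown, with the half-site in capitals, beside Eda2r, which had the largest fold change and no match. Only the first of 2 overlapping Aen windows is shown.
Bax, chr7:45466849-45467148, reverse strand: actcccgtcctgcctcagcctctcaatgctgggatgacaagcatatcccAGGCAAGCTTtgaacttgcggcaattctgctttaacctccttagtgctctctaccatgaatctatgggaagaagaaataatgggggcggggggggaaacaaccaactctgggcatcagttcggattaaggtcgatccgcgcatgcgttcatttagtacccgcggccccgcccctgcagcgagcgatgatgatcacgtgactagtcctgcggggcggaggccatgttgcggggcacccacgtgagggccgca
Aen, chr7:78895677-78895976, forward strand: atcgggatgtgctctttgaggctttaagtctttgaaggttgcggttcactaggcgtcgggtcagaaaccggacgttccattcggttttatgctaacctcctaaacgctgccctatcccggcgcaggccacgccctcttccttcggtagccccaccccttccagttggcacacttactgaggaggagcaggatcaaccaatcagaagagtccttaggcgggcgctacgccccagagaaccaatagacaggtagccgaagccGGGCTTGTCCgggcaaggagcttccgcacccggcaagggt
Ei24, chr9:36797285-36797584, reverse strand: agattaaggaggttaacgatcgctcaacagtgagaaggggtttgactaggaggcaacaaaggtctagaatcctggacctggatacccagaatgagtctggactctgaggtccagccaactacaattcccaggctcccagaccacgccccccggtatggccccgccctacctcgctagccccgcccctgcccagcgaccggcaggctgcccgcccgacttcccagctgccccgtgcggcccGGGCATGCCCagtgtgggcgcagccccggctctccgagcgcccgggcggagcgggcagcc
Eda2r, chrX:97377160-97377459, reverse strand: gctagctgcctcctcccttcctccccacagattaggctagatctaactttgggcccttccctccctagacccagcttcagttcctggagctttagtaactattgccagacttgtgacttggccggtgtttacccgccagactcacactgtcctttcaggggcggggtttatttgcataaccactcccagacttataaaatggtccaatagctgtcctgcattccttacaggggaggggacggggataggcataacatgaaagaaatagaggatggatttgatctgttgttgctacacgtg
The match lay 201 bases upstream of the start in Bax and 10 bases upstream in Ei24. In Aen the same match lay 10 bases downstream of the first start and 121 bases upstream of the second. The windows of Bbc3 (3), Apaf1, Fas and Eda2r held none of these letters on either strand. A half-site was found in 9.55% of the 27025 genes with a window and in 8.36% of all 32851 windows, so such a match is a description and says nothing of binding.

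Mutant progenitors held more RNA of most of these genes than wildtype ones in both groups of mice. In group 1, Bax, Bbc3, Tnfrsf10b, Eda2r, Aen and Ei24 rose, 6 of the 9 genes that passed the filter on low counts, and none fell (edgeR quasi-likelihood test, Benjamini-Hochberg adjusted p under 0.05 over 14048 genes). Of all genes tested, 5.79% were higher and 6.78% lower by that rule. With the replicate number as a block, all 9 rose, and 2863 genes in all were called in place of 1766. The labels do not say what libraries of the same number share, so the block is an alternative and not a known pairing. In the mutants of group 2, Bax, Bbc3, Tnfrsf10b, Eda2r and Aen rose, 5 of 9, and none fell, against 3.32% of all 15024 genes higher and 2.95% lower. In the low-yield mutants, Bbc3, Tnfrsf10b, Eda2r, Perp, Aen and Ei24 rose, 6 of 9, and none fell, against 6.68% of all genes higher and 5.86% lower. The comparisons of mutants and of low-yield mutants with wildtype share the 3 wildtype libraries of group 2. In a fit of both groups of mice with the group as a block, 8 of 9 rose, against 9.8% of 15954 genes higher and 9.8% lower, and Perp did not pass (adjusted p = 0.0511), but did with the block (0.000137).

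The fold changes covered a wide range and had 1 sign. All 9 tested genes were above 0 in each of the 4 comparisons with wildtype, and also under RLE scaling, DESeq2 and voom. Their median log2 fold change was 0.69 in group 1, 0.59 in the mutants and 0.69 in the low-yield mutants of group 2, while the median over all genes tested was 0.008, -0.01 and -0.004. Without any model, 9 of the 10 genes had every mutant library above every wildtype library in group 1 (15% of all genes tested), 7 in the mutants of group 2 (11.5%) and 6 in the low-yield mutants (15.3%). In group 1 the exception was Perp. The 9 there include Fas, with 9 counts or more in the mutants and 6 or fewer in wildtype. Fas failed the filter, so it is not among the genes that give the share.

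**Figure D1:**
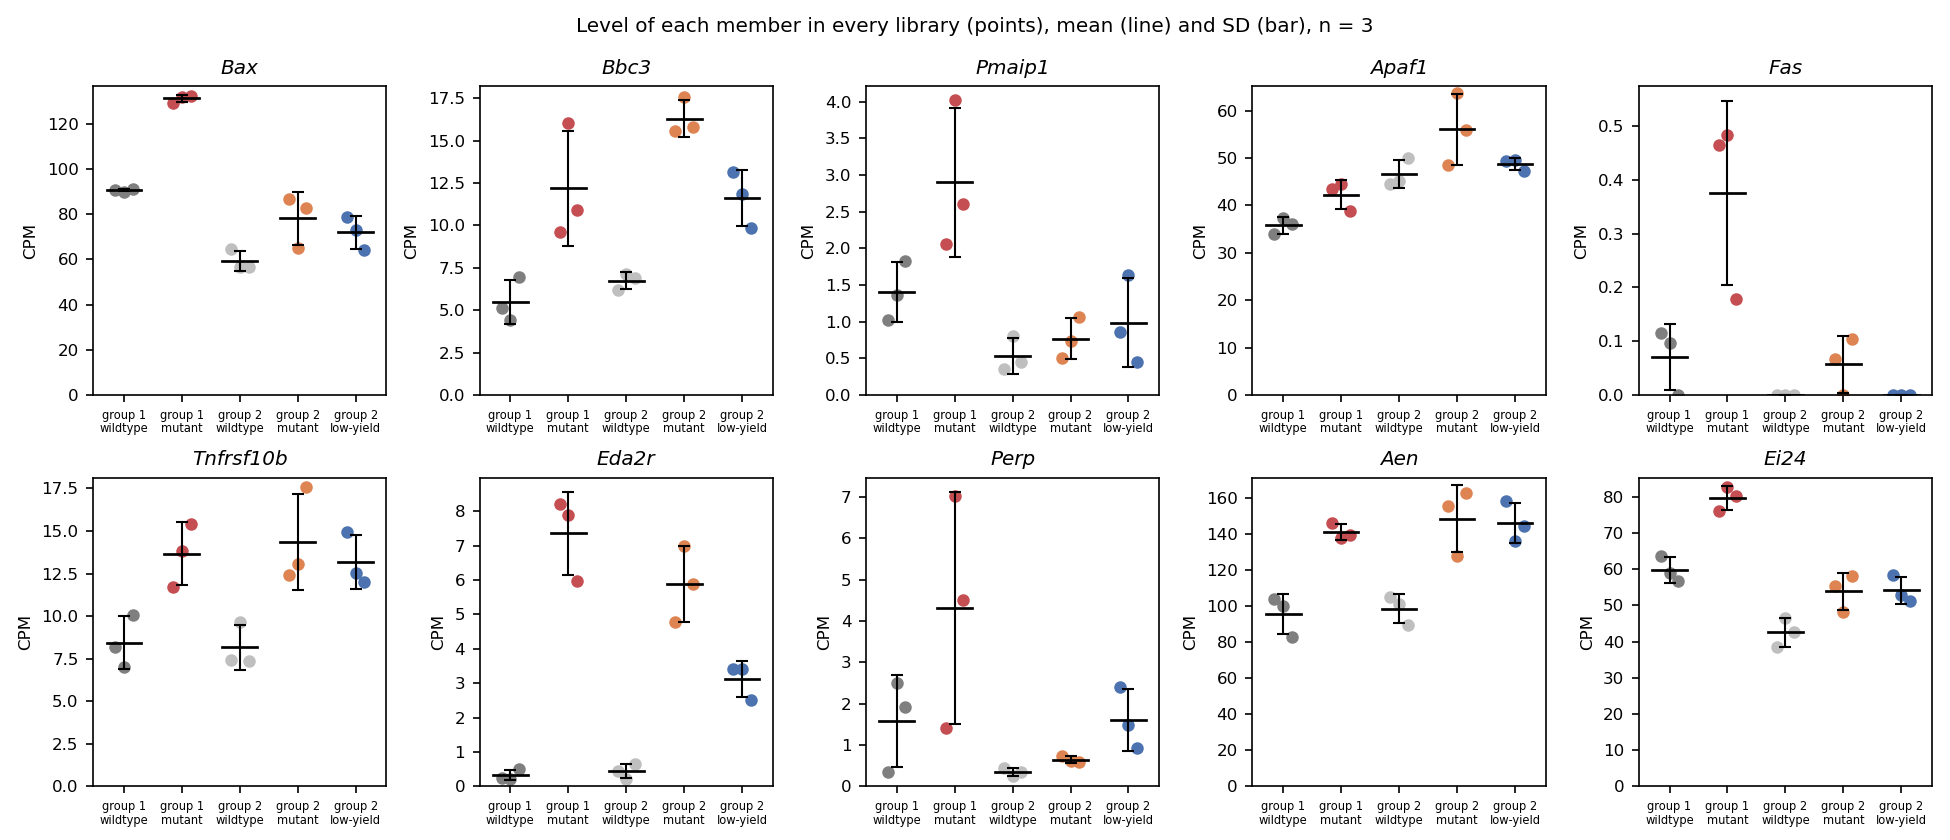
Level of each of the 10 genes in CPM (y axis, linear from 0, 1 scale per gene) in the 15 libraries, by group (x axis). Points are libraries, lines are means and bars are SD (n = 3); the Bax libraries of group 1 form a tight low cluster and a tight high cluster, whereas the Perp libraries of group 1 spread within each genotype.

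Bax (chr7:45461697-45466898, reverse strand, GRCm38) encodes the effector that permeabilises the mitochondrial membrane. In group 1 its CPM was 90.8, 90.1 and 91.1 in wildtype libraries 1 to 3 and 129.5, 131.8 and 132.6 in the mutants. The libraries of a genotype lay within a few CPM of each other and the genotypes did not overlap. Bax rose by 0.53 ± 0.06 on the log2 scale (SE, adjusted p = 0.000231), a 1.45-fold change, and the value stayed between 0.53 and 0.55 when any library was left out. The group 2 libraries gave 64.5, 56.6 and 56.8 in wildtype, 87.0, 65.0 and 82.6 in the mutants and 78.9, 72.9 and 64.4 in the low-yield mutants. Mutant library 2 lay just above wildtype library 1, and low-yield library 3 lay just below it. The log2 fold change was 0.40 ± 0.11 (adjusted p = 0.0478) in the mutants and 0.28 ± 0.11 (adjusted p = 0.121) in the low-yield mutants, which did not pass. The call in the mutants was lost without wildtype library 2 (adjusted p = 0.171) or 3 (0.14), without mutant library 1 (0.199) or 3 (0.186), and with the 6 compared libraries alone (0.0606). The call was gained in the low-yield mutants with voom (0.0172). A predicted gene on the same strand, Gm45808, shares 192 exon bases with Bax and held 22 counts in all of group 1 and 0 in group 2.

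Bbc3 (PUMA; chr7:16308393-16318205, forward strand) encodes a BH3-only protein that neutralises the survival members of the BCL2 family. Its CPM was 5.10, 4.4 and 6.95 in the wildtype and 9.64, 16.0 and 10.9 in the mutant libraries of group 1. The levels in group 2 were 6.20, 7.13 and 6.90 in wildtype, 15.6, 17.6 and 15.8 in the mutants, and 13.2, 11.8 and 9.87 in the low-yield mutants. All mutant libraries lay above all wildtype libraries of their group of mice, and the low-yield libraries of group 2 lay between the other 2 groups without overlap. Bbc3 rose by 1.14 ± 0.23 (adjusted p = 0.0101), 1.27 ± 0.15 (0.000336) and 0.77 ± 0.16 (0.00462) on the log2 scale in the 3 comparisons, in that order. The first of these calls was lost without wildtype library 2 of group 1 (1.01, adjusted p = 0.0512).

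Pmaip1 (NOXA), the other BH3-only gene, was scarcer and gave no call within either group of mice. Its CPM was 1.02, 1.36 and 1.83 in wildtype and 2.06, 4.03 and 2.61 in the mutants of group 1, without overlap. In group 2, wildtype libraries gave 0.348, 0.809 and 0.445, mutants 0.504, 0.733 and 1.06, and low-yield mutants 0.863, 1.64 and 0.455, and these ranges overlapped. The log2 fold change was 1.03 ± 0.34 (adjusted p = 0.0688) in group 1, 0.57 ± 0.59 (0.656) in the mutants and 0.83 ± 0.56 (0.374) in the low-yield mutants. The gene had 11 to 54 counts per library in group 2. With the replicate number as a block, group 1 gave 1.02 (adjusted p = 0.0147), DESeq2 gave 1.05 (0.0425), and leaving out mutant library 1 gave 1.22 (0.0435). Over both groups of mice Pmaip1 rose by 0.93 ± 0.27 (adjusted p = 0.0194), a call lost with DESeq2 (0.0504), with the legacy mode of edgeR (0.0876), and without wildtype library 1 (0.0736), wildtype library 2 (0.0522) or mutant library 2 (0.0962) of group 1.

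Apaf1 (chr10:90989311-91082770, reverse strand) encodes the scaffold of the apoptosome and had the smallest log2 fold change of the 9 over both groups of mice. The wildtype CPM of group 1 was 33.9, 37.4 and 36.1 and the mutant CPM 43.4, 44.6 and 38.8. In group 2 the values were 44.6, 45.1 and 50.05 in wildtype, 48.6, 63.7 and 55.9 in the mutants and 49.4, 49.6 and 47.4 in the low-yield mutants. The groups were apart in group 1 and overlapped in group 2. The log2 fold change was 0.24 ± 0.08 (adjusted p = 0.0827), 0.26 ± 0.10 (0.149) and 0.06 ± 0.10 (0.744) in the 3 comparisons, none past the threshold. With the replicate block it passed in group 1 (0.24, adjusted p = 0.0492), and in the joint fit of both groups of mice it rose by 0.25 ± 0.07 (0.0137).

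The genes of the BCL2 family and the apoptosome that are not among the 10 gave calls in both directions. Of 23 such genes, 20 were tested over both groups of mice, and 3 rose and 3 fell, beside 9.8% of all genes in each direction, with a median log2 fold change of -0.05 beside -0.001 over all genes. Bcl2, which blocks BAX and BAK, rose by 0.75 ± 0.16 (adjusted p = 0.00221). Bid, a BH3-only gene, rose by 0.21 ± 0.07 (adjusted p = 0.0248). The BH3-only genes Bcl2l11 (BIM) and Bad fell by 0.52 ± 0.07 (2.31e-05) and 0.34 ± 0.08 (0.0047), and Casp9, the caspase that the apoptosome activates, fell by 0.21 ± 0.06 (0.0206). Bcl2l11 also fell in each single comparison with wildtype, by 0.52 ± 0.10 (adjusted p = 0.00652), 0.53 ± 0.12 (0.021) and 0.80 ± 0.12 (0.000858).

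Eda2r (chrX:97333840-97377216, reverse strand) encodes the receptor of the ectodysplasin A2 ligand, of the TNF receptor family, and had the largest fold change of the 9. In group 1 the wildtype libraries held 0.251, 0.231 and 0.514 CPM and the mutants 8.20, 7.90 and 5.99. In group 2, wildtype libraries held 0.443, 0.231 and 0.646, the mutants 4.77, 6.98 and 5.88, and the low-yield mutants 3.42, 3.41 and 2.52. Wildtype libraries had 8 to 30 counts each and mutant libraries of either kind 105 to 405, and in group 2 the 3 groups were apart from each other. Eda2r rose by 4.43 ± 0.33 (adjusted p = 1.4e-05) in group 1, or 21.6-fold. In group 2 it rose by 3.67 ± 0.36 (5.45e-05) in the mutants and 2.74 ± 0.40 (0.000515) in the low-yield mutants. Each of these calls held with any library left out.

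Tnfrsf10b (chr14:69767472-69784411, forward strand) encodes the mouse death receptor for TRAIL. Its CPM in group 1 was 8.18, 7.03 and 10.1 in wildtype and 11.7, 13.8 and 15.4 in mutants. Those of group 2 held 7.43, 9.67 and 7.39 in wildtype, 12.4, 13.04 and 17.6 in mutants and 14.96, 12.6 and 12 in low-yield mutants. No mutant library of either kind overlapped with wildtype. The gene rose by 0.69 ± 0.16 (adjusted p = 0.0169), 0.83 ± 0.18 (0.0115) and 0.69 ± 0.18 (0.0185) on the log2 scale. Single libraries decided these calls. In group 1 the call was lost without wildtype library 1 (adjusted p = 0.0534), wildtype library 2 (0.084) or mutant library 3 (0.0923). In group 2 it was lost without wildtype library 3 in both comparisons (0.0552 and 0.0754), without mutant library 3 (0.0882) and without low-yield library 1 (0.0984). Over both groups of mice the rise was 0.76 ± 0.12 (0.000165), and it passed with any library left out. A processed pseudogene, Gm15574, matches 405 bases of Tnfrsf10b at 97.5% identity and held 6 counts in all libraries together.

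Fas, the receptor of FASL, was near the limit of detection (chr19:34290666-34327772, forward strand). It had 6, 5 and 0 counts in the wildtype and 23, 24 and 9 in the mutant libraries of group 1. Group 2 had 0 in every wildtype and every low-yield library and 2, 0 and 4 counts in the mutants. A count of 0 allows up to 3 counts, or 0.0669 to 0.091 CPM in the wildtype libraries of group 2. Fas failed the filter on low counts in each fit of all libraries. Without that filter its log2 fold change was 2.42 ± 0.92 (adjusted p = 0.127) in group 1 and 2.53 ± 0.81 (0.0342) in the joint fit, which passed. No fold is given for group 2 alone, where wildtype was at 0. Leaving out a library let Fas through the filter in 4 fits of group 1, with adjusted p from 0.0991 to 0.236, and in 10 joint fits. A smaller group lowers the number of libraries that the filter asks for. Mutant libraries 1 and 2 of group 1, with 23 and 24 counts, then met it. The filter was thus met only through the group where Fas was high, and these fits are no separate support for a rise. Of the joint fits it passed without wildtype library 1 (0.036) or mutant library 3 (0.0148) of group 1, and without wildtype library 1 (0.0224), 2 (0.0306) or 3 (0.0295) or mutant library 1 (0.0417) or 2 (0.0212) of group 2. It did not pass without wildtype library 2 (0.0528) or 3 (0.0842) of group 1 or mutant library 3 of group 2 (0.0573). Of 15 other genes of death receptor signalling, 12 were tested in group 1, 11 in group 2 and 12 over both, and none passed with edgeR without a block. At an unadjusted p under 0.05 there were 0 in group 1, 1 in the mutants and 2 in the low-yield mutants of group 2, and 2 over both groups of mice. DESeq2 called 0 in each, and voom called 0, 1, 2 and 0. With the replicate block edgeR called 1 over both groups of mice and 0 in each single comparison. The median of that list over both groups was 0.03 on the log2 scale.

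**Figure D2:**
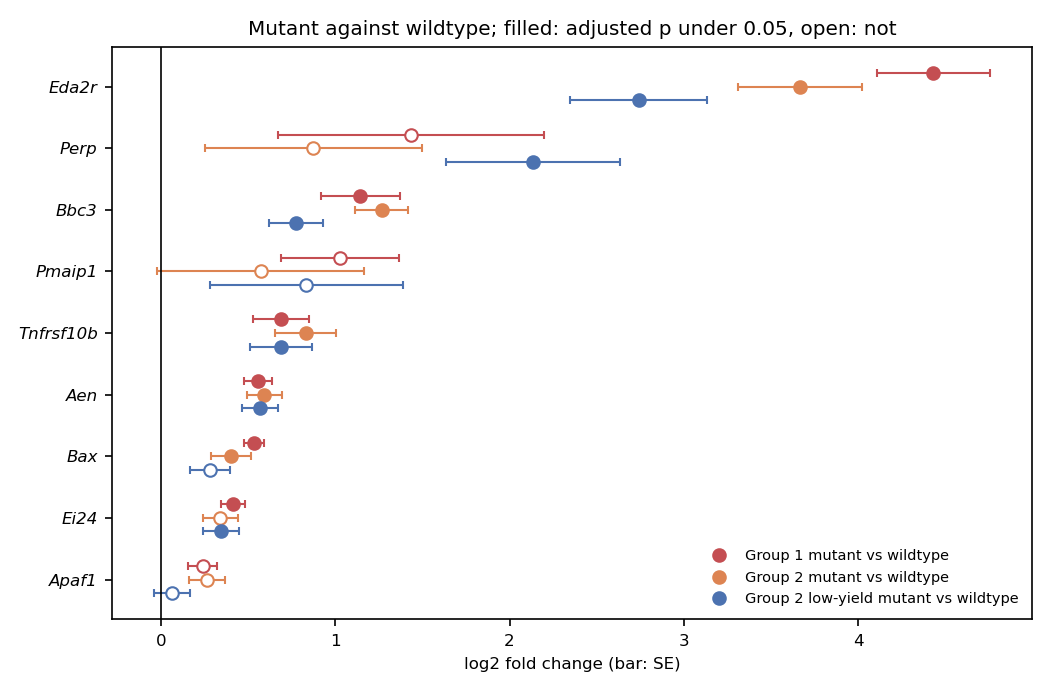
Log2 fold change of mutant against wildtype (x axis) for the 9 tested genes (y axis, ordered by the fit of both groups of mice), with its SE as a bar, in the 3 comparisons with wildtype. Filled points passed an adjusted p of 0.05; Eda2r lies far to the right at 4.43, 3.67 and 2.74, and every point is above 0.

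Aen (chr7:78895854-78911209, forward strand) encodes a nuclease that acts in apoptosis. Its CPM was 104.1, 100 and 83.0 in wildtype and 146.1, 137.4 and 139.1 in the mutants of group 1. Group 2 gave 104.8, 101.3 and 89.6 in wildtype, 155.2, 127.4 and 162.6 in mutants and 158.1, 135.9 and 144.1 in low-yield mutants. The lowest mutant library of group 2, library 2, was above the highest wildtype library, and neither mutant group overlapped with wildtype in group 1 or 2. Aen rose by 0.56 ± 0.08 (adjusted p = 0.0015), 0.59 ± 0.10 (0.00335) and 0.57 ± 0.10 (0.00199), and with any library left out these calls held.

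Ei24 (chr9:36779159-36797393, reverse strand) encodes a membrane protein of the endoplasmic reticulum that p53 induces. In group 1 its CPM was 63.6, 58.9 and 56.7 in wildtype and 75.9, 82.7 and 80.2 in mutants. In group 2 the values were 38.6, 46.6 and 42.5 in wildtype, 55.3, 48.3 and 58.1 in mutants and 58.4, 52.7 and 51.2 in low-yield mutants. The mutant libraries of either kind lay above wildtype, by the smallest margin for mutant library 2 of group 2. The log2 fold change was 0.41 ± 0.07 (adjusted p = 0.00333) in group 1, 0.34 ± 0.10 (0.0623) in the mutants and 0.34 ± 0.10 (0.0382) in the low-yield mutants of group 2. The estimates in group 2 lay on either side of the threshold while differing from each other by 0.003 ± 0.102. The mutant value passed with DESeq2 (0.0317), with voom (0.0288) and without mutant library 2 (0.0388). The low-yield call was lost without wildtype library 1 (0.0834) or 3 (0.0918) and without low-yield library 1 (0.18) or 2 (0.0914). An antisense gene, Gm26787, shares 324 exon bases with Ei24 and held 0 counts.

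Perp (chr10:18845020-18857073, forward strand) varied between libraries of 1 genotype in group 1. It encodes a tetraspan membrane protein of p53-dependent apoptosis that is also a part of desmosomes. Its CPM in group 1 came to 0.348, 2.50 and 1.92 in wildtype libraries 1 to 3 and to 1.42, 7.03 and 4.50 in mutants 1 to 3. The genotypes overlapped, and library 1 was the lowest of each. Group 2 held 0.443, 0.260 and 0.356 in wildtype, 0.739, 0.617 and 0.593 in mutants and 2.40, 1.49 and 0.934 in low-yield mutants. There the 3 groups were apart, with the low-yield libraries highest. The log2 fold change was 1.43 ± 0.76 (adjusted p = 0.305) in group 1, 0.87 ± 0.62 (0.481) in the mutants and 2.13 ± 0.50 (0.0112) in the low-yield mutants. The last call was lost without wildtype library 2 (0.0536) or low-yield library 1 (0.0691). With the replicate number as a block, Perp passed in group 1 (1.44, adjusted p = 0.000273) and in the joint fit (1.35, 0.000137). The value over both groups also passed with DESeq2 (0.0342), and without wildtype library 2 (0.0347) or mutant library 1 (0.00134) of group 1.

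Granulocyte genes varied together with Perp between the libraries of group 1. Their summed CPM was 72.5, 569 and 560 in wildtype libraries 1 to 3 and 228, 1138 and 831 in mutants 1 to 3 of group 1, the same order as Perp within each genotype. In group 2 the sums were 35.9, 18.3 and 16.8 in wildtype, 141, 225 and 140.5 in mutants and 380.5, 182 and 165 in low-yield mutants. Of the 8 granulocyte genes, 0 passed in group 1 with edgeR, DESeq2 or voom, and 0 had an unadjusted p under 0.05. With the replicate block, the fit in which Perp passed there, 4 of the 8 passed, beside 2863 of all 14048 genes, and the sum was higher in the mutant of each number. In group 2, 4 of 7 tested rose in the mutants and 7 of 7 in the low-yield mutants, beside 3.32% and 6.68% of all genes. Genes of megakaryocytes, the platelet precursors, had sums of 15.7 to 18.8 in wildtype, 25.8 to 26.3 in mutants and 36.4 to 47.3 in low-yield mutants of group 2, and 6 endothelial genes 0.895 to 1.86, 3.56 to 5.67 and 6.37 to 10.01. Both sums stood in the order that Perp had there, but not every gene in them did. Itga2b and Gp1ba made up most of the first sum there and Pecam1 most of the second. In the low-yield mutants 4 of 5 tested megakaryocyte genes and 4 of 4 tested endothelial genes were above 0 on the log2 scale. Of each list 3 passed. Gp9, a megakaryocyte gene, had 1.58 to 3.43 CPM in wildtype and 1.41 to 2.06 in low-yield mutants. In group 1 the megakaryocyte sums were 18.5, 25.2 and 29.7 in wildtype and 27.1, 38.9 and 42.5 in mutants, and the endothelial sums 2.11, 4.17 and 3.66 against 3.91, 9.67 and 8.42, each higher in the mutant of its number. Of the genes tested there, 5 of 6 and 3 of 3 were above 0 on the log2 scale, and 0 passed. Gp9 had 2.63 to 3.65 CPM in wildtype and 1.53 to 2.21 in mutants. The endothelial gene Cdh5 had 0.154 to 0.464 and 0 to 0.158, and Stab2 and Emcn were at 0 in all mutants of group 1. The 6 lymphoid genes summed to 0.792 to 7.94 and 2.55 to 15.5 in group 1, and to 0.569 to 1.34, 1.24 to 1.94 and 2.71 to 3.04 in group 2. Among them Cd3e was at 0 in all 15 libraries, and Ptprc, a gene of all white blood cells, rose in the low-yield mutants (1.65 ± 0.35, adjusted p = 0.00607). The 8 macrophage genes summed to 1.37 to 7.34 and 1.94 to 12.2 in group 1 and to 0.948 to 4.10, 1.95 to 5.94 and 3.44 to 6.17 in group 2. Of these C1qc was above 0 only in wildtype libraries 1 and 2 of group 1, at 0.019 and 0.269 CPM. Over both groups of mice 4 were tested, 3 of them above 0 on the log2 scale. Only Vcam1 passed with edgeR (1.14 ± 0.40, adjusted p = 0.0487), beside 9.8% of all genes higher, and 0 passed with DESeq2 or voom. The part of these cells in the Perp values was not tested. Other members also ran with these sums. As a description over the 15 libraries, which share the split by genotype, Pearson r of log2 levels, less the mean of each group of mice, with the granulocyte sum was 0.874 for Perp, 0.71 for Tnfrsf10b, 0.708 for Bbc3 and 0.665 for Eda2r. For Perp it was 0.894 with the lymphoid, 0.869 with the megakaryocyte, 0.848 with the endothelial and 0.682 with the macrophage sum. For Eda2r it was 0.749 with the endothelial sum, and with the erythroid sum r was -0.917 for Aen, -0.858 for Bax and -0.838 for Eda2r.

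**Figure D3:**
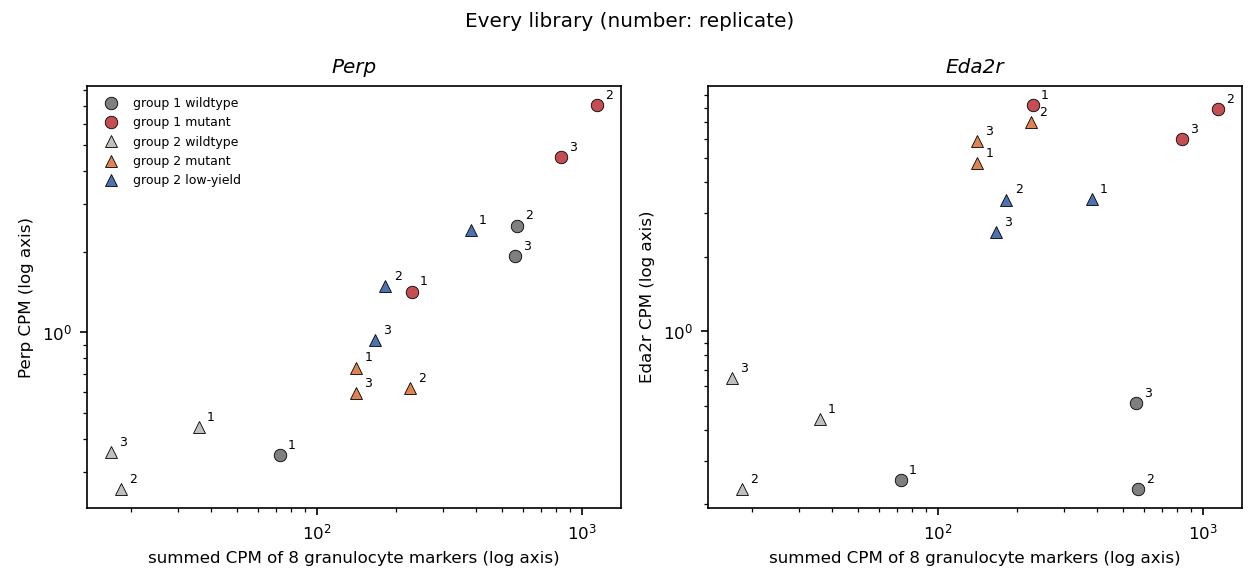
Level of Perp (left) and Eda2r (right) in CPM (y axis, log) against the summed CPM of 8 granulocyte genes (x axis, log) in each of the 15 libraries, numbered by replicate. Within group 1 the libraries with the lowest and highest Perp, 0.348 and 7.03 CPM, have granulocyte sums of 72.5 and 1138. Within group 2 those at 0.260 and 2.40 CPM have sums of 18.3 and 380.5. In group 1 Eda2r is 0.231 to 0.514 CPM in wildtype at sums of 72.5 to 569 and 5.99 to 8.20 in mutants at sums of 228 to 1138, and in group 2 wildtype is lower than the mutants on both axes.

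The low-yield mutants were also compared with the other mutants of group 2. No gene passed with edgeR among 15024 tested (0% in either direction), where 480 had an unadjusted p under 0.05; DESeq2 called 6 genes and voom 10, none of them among the 10. By edgeR, 3 of the 9 had an unadjusted p under 0.05, each with an adjusted p of 1. These were Eda2r (log2 difference -0.93 ± 0.25), Bbc3 (-0.49 ± 0.14) and Perp (1.26 ± 0.45). In these 3 genes the 3 low-yield and the 3 mutant libraries did not overlap, and of all genes tested 4.15% lay apart on the lower and 4.07% on the higher side. Aen (-0.02 ± 0.10), Ei24 (0.003 ± 0.102), Bax (-0.12 ± 0.11) and Tnfrsf10b (-0.14 ± 0.17) overlapped between the groups. Genotype effects were compared between the groups of mice by an interaction term. The groups of mice also differ in the kind of RNA, and the labels of group 1 give no allele. A difference in genotype effect cannot be told apart from these. None of the 9 passed, also with DESeq2 or voom, and none had an unadjusted p under 0.05, with edgeR calling 0.0188% of all genes. For Eda2r the effect in group 2 minus that in group 1 was -0.75 ± 0.66.

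Per length, the genes spanned a wide range of levels. In CPM per kb of exon, wildtype libraries of group 1 held 57.5 ± 0.3 (SD, n = 3) of Bax, 16.5 ± 1.9 of Aen and 12.3 ± 0.7 of Ei24. Apaf1 followed at 3.96 ± 0.19, Bbc3 at 2.58 ± 0.62 and Tnfrsf10b at 1.55 ± 0.28. Perp (0.81 ± 0.57) and Pmaip1 (0.52 ± 0.15) overlapped between libraries, as did Eda2r (0.056 ± 0.027) and Fas (0.034 ± 0.030) at the end of the order. Other neighbours did not overlap. In the mutants of group 1, Bbc3 stood at 5.74 ± 1.59 above Apaf1 (4.68), with overlap, and Eda2r at 1.25 ± 0.20 above Pmaip1 (1.06), with overlap. The largest fold and the largest difference in level therefore belonged to different genes. The mean level per kb was 25.8 higher for Bax in the mutants of group 1, 7.78 higher for Aen and 4.08 higher for Ei24, but 1.19 higher for Eda2r.

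**Figure D4:**
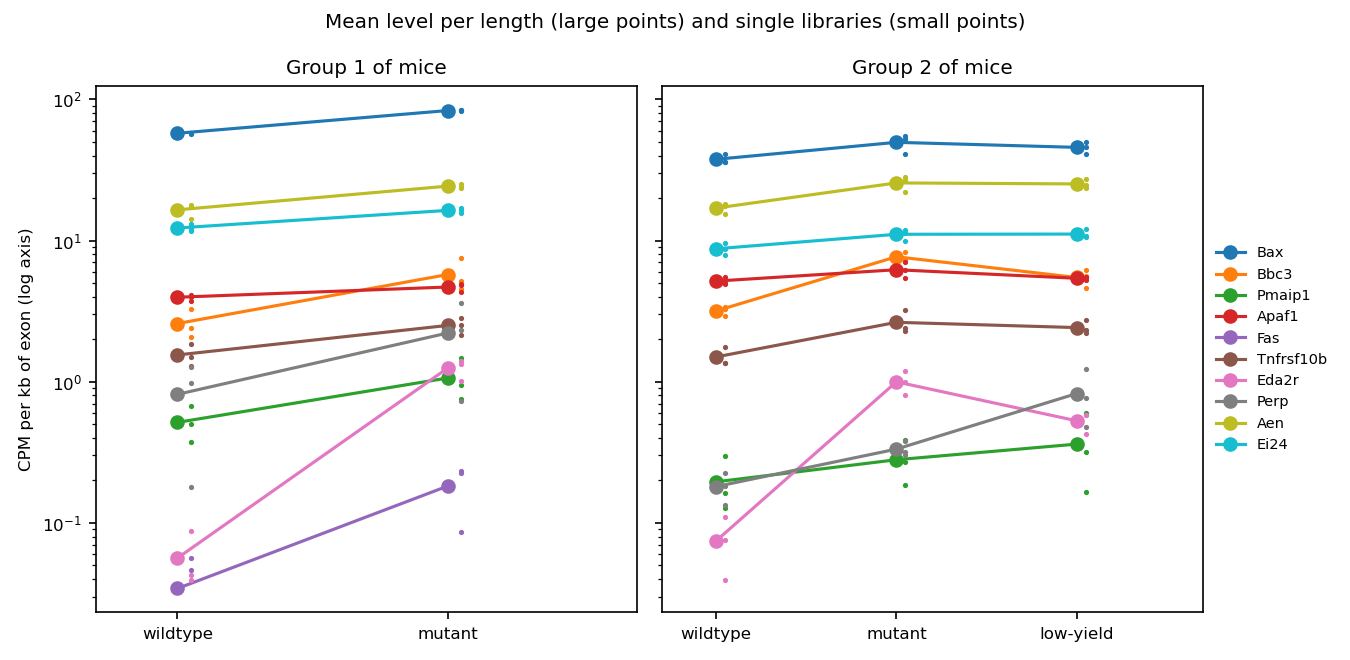
Mean level in CPM per kb of exon (y axis, log) by genotype (x axis) in group 1 (left) and group 2 (right); small points are the 3 libraries of each group, and libraries at 0 are not drawn, nor is Fas in group 2, where 2 groups are at 0. Bax is highest throughout, and the line of Eda2r is the steepest, from 0.056 to 1.25 in group 1.

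Among 30 other p53 targets, of arrest, repair, metabolism and in part death, 28 were tested over both groups of mice, and 14 rose and 3 fell, beside 9.8% of all genes in each direction, with a median log2 fold change of 0.32. The largest rises were those of the cell cycle inhibitor Cdkn1a (3.81 ± 0.18, adjusted p = 1.9e-09), the kinase gene Plk2 (3.04 ± 0.27, 2.35e-07) and Zmat3, an RNA-binding protein gene (2.53 ± 0.07, 7.61e-15). Btg2, Sesn1 and Steap3 fell by 0.92 ± 0.20 (0.00633), 0.33 ± 0.09 (0.00989) and 0.22 ± 0.06 (0.0141). In group 1 alone 12 of 28 rose and 2 fell, beside 5.79% and 6.78% of all genes. Of 27 tested in group 2, 10 passed in the mutants, all upward, beside 3.32% of all genes higher and 2.95% lower. In the low-yield mutants 8 rose and 3 fell, beside 6.68% and 5.86%.

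**Figure D5:**
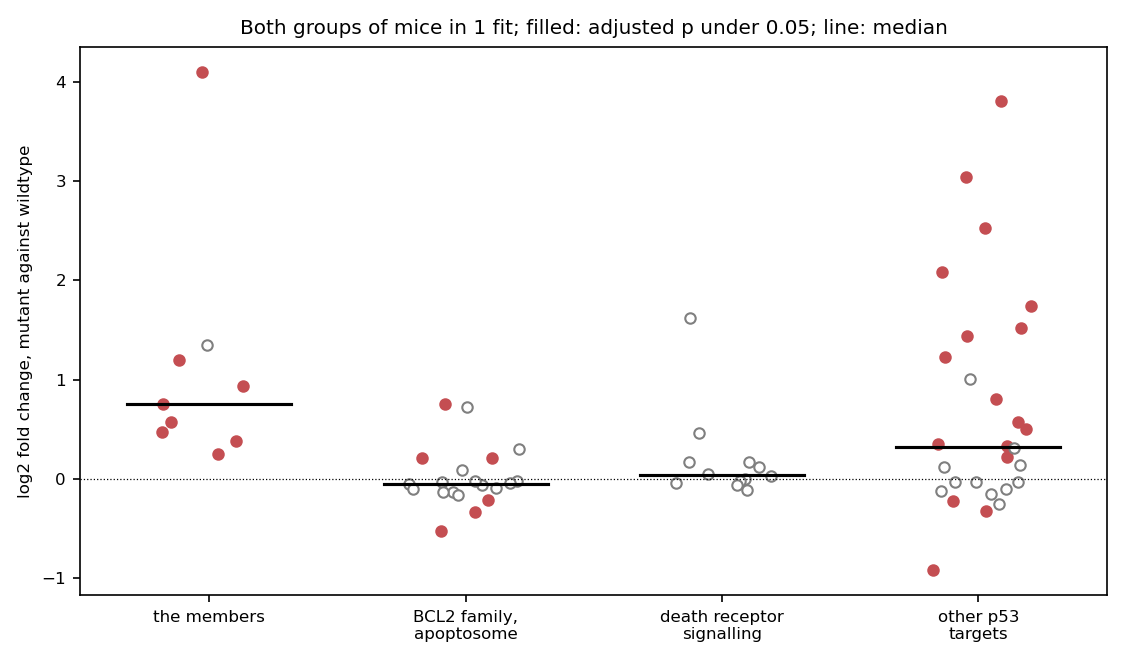
Log2 fold change of mutant against wildtype over both groups of mice (y axis) for single genes (points) of 4 gene lists (x axis): the 9 tested death genes, the BCL2 family and apoptosome, death receptor signalling and other p53 targets. Filled points passed an adjusted p of 0.05 and lines are medians, at 0.76, -0.05, 0.03 and 0.32.

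The genes whose level ran most like each of the 8 that rose in the joint fit, which leaves out Perp and Fas, were sought over the 15 libraries, as Pearson r of log2 CPM after removing the mean of each group of mice. These values are descriptions, since all points share the split by genotype. Eda2r ran most like Raver2 (0.977) and Zmat3 (0.975), Tnfrsf10b like Cdkn1a (0.94) and Tjp1 (0.939), and Apaf1 like Mdm2 (0.895) and Cmtm4 (0.866). Bbc3 ran most like 2900052L18Rik (0.952) and Olfm1 (0.946), and Pmaip1 like Tulp3 (0.882) and Raph1 (0.856). Aen and Ei24 had the same gene in first place, Copg1 (0.964 and 0.955), followed by Vps36 (0.963) and Syngr2 (0.947). Bax had Fyn and Banf1 (both 0.961).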

How the data were processed

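RNA from 15 libraries was extracted with a column kit and read as paired ends, per the labels. The values the authors deposited are expected counts per gene, estimated read numbers that are not normalized. The submitters' processing notes name cutadapt 2.3, STAR 2.7.8a, RSEM 1.3.3 and GRCm38, with no role or order; the annotation's release and whether strand was used are not given in the sources used here. The values were already whole, so rounding changed none. Reporter rows, 5 counts in all, were left out. Of 55487 genes, 55141 (99.4%) were in GENCODE M21, which gave positions and exon lengths.

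The test of counts was that of edgeR 4.0.16 (R 4.3.3), with TMM, filterByExpr, a robust quasi-likelihood fit (legacy mode off) and its two-sided test, adjusted by Benjamini-Hochberg over all genes of a fit, with a threshold of 0.05; SE is the log2 fold change over the root of F. Fits were group 1 (6 libraries), group 2 (9), and both groups of mice without the low-yield libraries (12), the last with and without the interaction. Alternatives were DESeq2 1.42.0, limma 3.58.1 voom with quality weights, RLE scaling, no filter, 6 libraries, a replicate block, leaving out each library and, chosen after seeing the data, the legacy mode. The main edgeR fits were checked on simulated data. The alternatives and the contrast of low-yield with other mutants were not.

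The labels do not say whether the replicate numbers mark a pairing, so calls with the block depend on that reading. In group 1 same-numbered deviations from the group means correlated at 0.441, 0.186 and 0.146, although wildtype library 3 correlated better with mutant library 2 (0.23). In group 2 the correlations of same-numbered libraries ran from -0.068 to 0.241. CPM per kb divides by merged exon length and is approximate. Near-identical copies were sought with blastn 2.17.0. The members are those of a given list of 10; the other lists come from general knowledge, and all were chosen with earlier results of these data known. From each list, up to 3 passing genes in each direction over both groups of mice are named, and for each passing member the 2 genes most like it. A passing list gene is counted but not reported here. Intervals between replicates are SD or SE over 3 libraries; the floor of 3 counts covers counting error only.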

Additional observations from a re-analysis of the deposited data

How the results depend on the processing

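Under RLE scaling, DESeq2, voom, no filter, the block and the legacy mode, the 9 tested genes kept a positive log2 fold change in the 4 comparisons with wildtype, as they did with any library left out and, in group 2, with the 6 compared libraries alone. The number of members called ranged from 4 to 7 in group 1 with a library left out, 3 to 6 in the mutants and 3 to 6 in the low-yield mutants of group 2, and 7 to 9 over both. The number of genes called ranged from 753 to 1729 in group 1, 425 to 1323 and 900 to 2395 in group 2, 0 to 22 between low-yield and other mutants and 2 to 3 for the interaction.

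DESeq2 called 1452 genes in the mutants of group 2, 6 between low-yield and other mutants and 13 for the interaction; voom called 1928 in the mutants, 3348 in the low-yield mutants and 10 between them. The replicate block raised the count in group 1 from 1766 to 2863 and that of members from 6 to 9, and that of the interaction from 3 to 5. In group 2 the block gave 1309 genes and 5 members in the mutants and 2331 genes and 6 members in the low-yield mutants. Correlations of same-numbered libraries there were -0.068 to 0.241. No pairing was assumed in the main fits of either group of mice. In neither group of mice did every library correlate best with its own number. Members whose block call changed are given beside their values, and no other member call changed.

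Differences near 0 that passed no test changed sign. For low-yield against other mutants, Ei24 was 0.003 and became -0.016 with voom and -2e-04 with the 6 libraries. With a library left out it ran from -0.069 to 0.063, Aen from -0.12 to 0.048, Tnfrsf10b from -0.24 to 0.047 and Pmaip1 from -0.32 to 0.67. For the interaction, Bbc3 ran from -0.062 to 0.37, Apaf1 from -0.069 to 0.099, Tnfrsf10b from -0.059 to 0.26, Aen from -0.0596 to 0.16 and Ei24 from -0.15 to 0.0074. The cause was not tested. Fas, with at most 24 counts in a library, was below the filter with all libraries, and in the joint fit the member gained without wildtype library 1, 2 or 3 or mutant library 1 or 2 of group 2 was Fas.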
